A study of Homo sapiens with 2 samples.

Results

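The G1 cyclins CCND1, CCND2, CCND3, CCNE1 and CCNE2, the kinases CDK4 and CDK6 and the CDK inhibitors CDKN1A, CDKN1B and CDKN2B were followed on the arrays of PC3 and PC3CR cells. These 10 genes were taken by name, with no threshold on their values. All 10 had a probe set with a single gene symbol, and they were 10 of 19775 genes and 24 of 41091 probe sets. PC3 is a castration-resistant prostate cancer cell line. PC3CR is, by its label, the cabazitaxel (CBZ)-resistant subline made from it, passaged in medium with CBZ, a taxane, for 18 months and examined after 3 months off the drug. Both lines were kept in RPMI-1640 medium with fetal bovine serum. The labels do not say whether PC3CR is a clone or a pool. Each line was measured on 1 array, so no difference below has a replicate check or a p-value, and the precision is limited by the number of arrays. Values are log2 RMA signals as deposited, and a difference is PC3CR minus PC3, so that 1 is 2-fold. Each probe set has its own affinity, and levels were therefore compared between the cell lines and not between genes.

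A cell passes from G1 into S phase when the retinoblastoma protein RB1 is phosphorylated and releases the E2F factors. The D-type cyclins, induced by growth signals, bind CDK4 or CDK6 and begin this phosphorylation, and the E-type cyclins, which are themselves E2F targets, bind CDK2 and complete it. The INK4 inhibitors such as p15, the product of CDKN2B, bind CDK4 and CDK6 alone and keep D cyclins away. The CIP/KIP inhibitors p21 and p27, encoded by CDKN1A and CDKN1B, bind whole cyclin-CDK complexes and block CDK2 in particular. Much of the control of these proteins is by degradation and phosphorylation, which an RNA array does not measure.

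The 10 genes did not move as one. On the brightest probe set of each gene, 2 of the 10 were higher by 2-fold or more in PC3CR (CCND3 and CCNE2), 1 was lower by 2-fold or more (CDK6) and 7 lay within 2-fold. Across all genes 9.84% were higher by 2-fold or more and 6.72% lower by 2-fold or more. At a 1.5-fold threshold 5 of the 10 were higher, namely CCND3, CCNE2 and the 3 inhibitors, against 18.0% of all genes. Only CDK6 was lower, against 13.5%. These shares include many dim genes. The brighter array reached the median gene for 9 of the 10 genes and for 10645 genes in all. Among those 10645, 15.6% were higher and 10.8% lower by 2-fold or more. At 1.5-fold, 2952 of the 10645 were higher and 2099 lower. The median difference was 0.48 over the 10 genes and -0.04 over all genes. Of the 24 probe sets, 3 were higher by 2-fold or more and 3 lower by 2-fold or more, and all 3 of the latter belonged to CDK6. Among all probe sets with 1 gene symbol these shares were 8.94% and 5.89%.

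**Figure D1:**
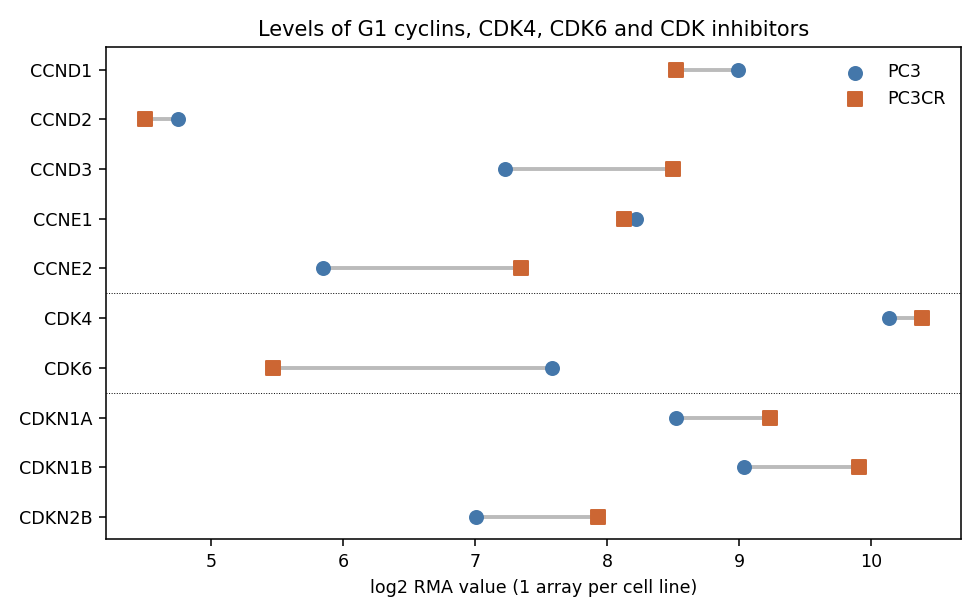
Log2 RMA values (horizontal axis) of the brightest probe set of each of the 10 genes in PC3 (blue circles) and PC3CR (orange squares), 1 array each, with cyclins, kinases and inhibitors separated by dotted lines. CDK6 is the only gene whose PC3CR value lies more than 2-fold below PC3, from 7.58 to 5.47, and all 3 inhibitors lie to the right in PC3CR.

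The D-type cyclins differed from each other. CCND1, which encodes cyclin D1, read 8.99 in PC3 against 8.52 in PC3CR, a difference of -0.47. Its second probe set, at 8.62 and 8.34, differed by -0.28. Both probe sets were thus lower in PC3CR and both stayed within 2-fold. Of all genes, 17.4% had a difference as low as that of CCND1 or lower. CCND2, which encodes cyclin D2, read 4.75 in PC3 against 4.50 in PC3CR, a difference of -0.25. Its other 3 probe sets did not reach the lower quartile of genes on either array (4.22 in PC3 and 4.10 in PC3CR), with differences of -0.53, -0.14 and 0.66. CCND2 was the only one of the 10 genes whose brighter array did not reach the median gene, and at such levels a difference in either direction says little about the gene.

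CCND3, which encodes cyclin D3, read 7.23 in PC3 against 8.50 in PC3CR, a difference of 1.27 or 2.42-fold. Of all genes, 6.43% had a difference of this size or more. The size rested on 1 of its 2 probe sets. The dimmer one, at 4.51 and 4.22, differed by -0.30, so that the mean of both was 0.49 and no longer past 2-fold. Cyclin D3 was therefore the D cyclin whose signal was higher in PC3CR than in PC3, while the differences of CCND1 and CCND2 were below 0. The difference of CCND3 exceeded that of CCND1 by 1.74 on the log2 scale.

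The E-type cyclins also parted. CCNE1, which encodes cyclin E1, read 8.22 in PC3 against 8.13 in PC3CR, a difference of -0.09, and its dimmer probe set, at 4.05 and 4.30, differed by 0.25. CCNE1 was near the centre of the distribution, with 45.2% of genes at or below its difference. CCNE2, which encodes cyclin E2, read 5.84 in PC3 against 7.35 in PC3CR, a difference of 1.51 (2.84-fold higher). A second probe set was at 4.59 and 6.30 and differed by 1.71. CCNE2 had the highest difference of the 10 genes and was the only one with several probe sets that were all past 2-fold. Of all genes, 4.46% had a difference at least as high.

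CCNE2 is known as a gene of the G1/S transcription program, and other genes of DNA replication and proliferation were higher in PC3CR as well. Of 14 such markers, 9 were higher by 2-fold or more and none was lower by 2-fold or more. The shares of all genes were 9.84% and 6.72%, or 15.6% and 10.8% where the brighter array reached the median gene. The 14 markers had differences from -0.05 (MCM7) to 2.70 (MKI67, which encodes Ki67) and a median of 1.26. TOP2A, the topoisomerase of dividing cells, differed by 2.10, and the helicase subunits MCM4 and MCM5 by 1.76 and 1.68. The part of a larger cycling share of cells in the CCNE2 difference was not tested. In RNA from whole cultures, more cells in a phase and more RNA per cell cannot be told apart.

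**Figure D2:**
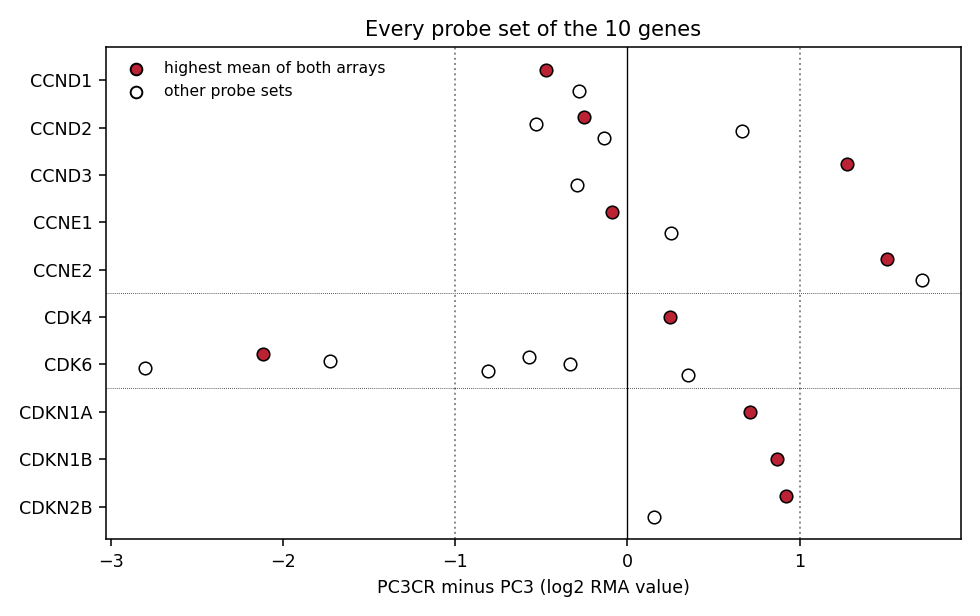
PC3CR minus PC3 (log2 RMA value, horizontal axis) for all 24 probe sets of the 10 genes, 1 point per probe set. Red points are the probe sets with the highest mean of both arrays, white points the others, and dotted lines mark 2-fold. The probe sets of CDK6 span -2.80 to 0.35, whereas both probe sets of CCNE2 lie beyond the right dotted line.

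The catalytic partners of the D cyclins lay further apart than the D cyclins themselves. CDK4 read 10.14 in PC3 against 10.39 in PC3CR, a difference of 0.25 on its single probe set. CDK6 read 7.58 in PC3 against 5.47 in PC3CR, a difference of -2.11, which is 4.33-fold lower. Of all genes, 1.83% had a difference this low or lower. The difference of CDK4 exceeded that of CDK6 by 2.36 on the log2 scale.

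CDK6 had 7 probe sets, of which 6 were lower in PC3CR and 1 was higher. The probe set of the main value and 2 others were past 2-fold, with differences of -2.11, -1.73 and -2.80. The last of these went from 6.41 to 3.61, below the lower quartile of genes in PC3CR. The remaining lower probe sets differed by -0.81, -0.57 and -0.34. The 1 higher probe set, at 3.70 and 4.05, did not reach the lower quartile of genes on either array. The mean over the 7 probe sets was -1.14 and their median -0.81, so that the direction was the same and the call at 2-fold depended on how probe sets were joined. Which CDK6 transcripts each probe set binds was not tested.

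The DNA before the start sites of CDK4 and CDK6 is shown because these 2 kinases share their cyclins and their differences had opposite signs. RefSeq windows (GRCh38.p14) were found for 7 of the 10 genes. The 250 bases before the most upstream start of each were searched on both strands for GC boxes (GGGCGG, the core bound by SP1) and E-boxes (CACGTG, the core bound by MYC), and capitals mark these matches. The window of CDK4 is chr12:57752311-57752560 on the minus strand, and that of CDK6 is chr7:92836574-92836823 on the minus strand.
CDK4: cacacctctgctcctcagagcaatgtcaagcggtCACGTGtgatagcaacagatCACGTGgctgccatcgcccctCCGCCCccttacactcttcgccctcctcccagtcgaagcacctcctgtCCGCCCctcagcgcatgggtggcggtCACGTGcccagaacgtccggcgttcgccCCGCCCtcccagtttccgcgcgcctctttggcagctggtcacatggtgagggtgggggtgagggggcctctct
CDK6: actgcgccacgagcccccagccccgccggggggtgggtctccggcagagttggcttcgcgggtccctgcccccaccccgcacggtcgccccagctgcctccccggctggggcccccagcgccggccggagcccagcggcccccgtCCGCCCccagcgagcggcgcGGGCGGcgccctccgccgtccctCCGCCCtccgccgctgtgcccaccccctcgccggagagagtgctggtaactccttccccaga

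The CDK4 window held 3 E-boxes and 3 GC boxes. At least 1 E-box was present in 6.34% of 35116 such windows and at least 3 in 28 of them, or 0.0797%. CDK4 was the only one of the 7 genes with an E-box in this window. MYC, which is known to act on CDK4, read 12.63 in PC3 against 10.88 in PC3CR, a difference of -1.75 against 0.25 for CDK4. The CDK6 window held 3 GC boxes and no E-box, and 13.9% of all windows held at least 3 GC boxes. A match of letters does not show that a factor binds there.

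The 3 inhibitors were each higher in PC3CR by between 1.5-fold and 2-fold. CDKN1A, which encodes p21, read 8.52 in PC3 against 9.23 in PC3CR, a difference of 0.71 or 1.63-fold. CDKN1B, which encodes p27, read 9.04 in PC3 against 9.91 in PC3CR, a difference of 0.87 or 1.83-fold. Each of these genes had 1 probe set, so that no second probe set bears on the value. CDKN2B, which encodes p15, read 7.01 in PC3 against 7.93 in PC3CR, a difference of 0.92 (1.89-fold higher). The dimmer of its probe sets, at 4.73 and 4.88, differed by 0.16, and the mean of both was 0.54. Differences at least as high were found for 15.1% of all genes in the case of CDKN1A, 11.9% for CDKN1B and 11.2% for CDKN2B. The inhibitors therefore had the same direction, at sizes that more than 1 in 10 genes of these arrays reached.

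**Figure D3:**
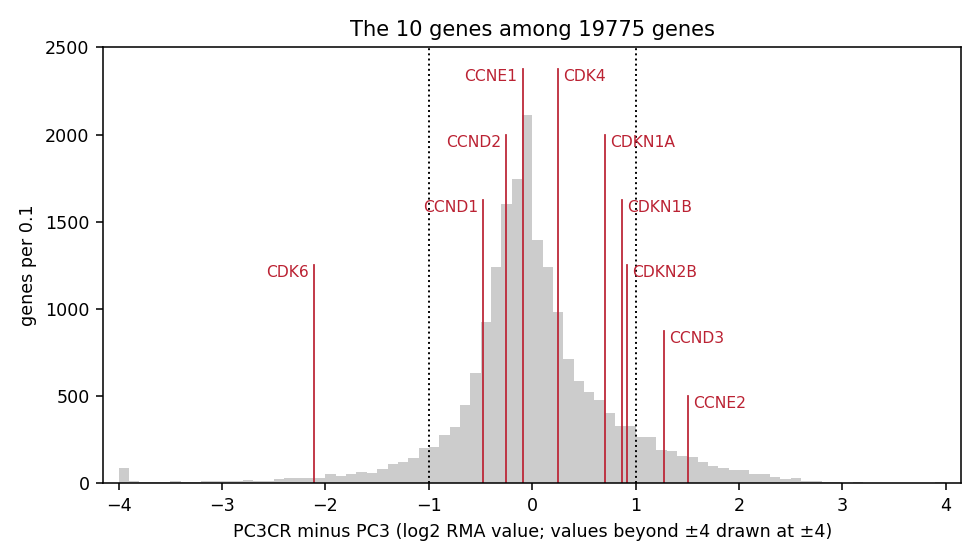
Distribution of PC3CR minus PC3 (log2 RMA value, horizontal axis) over 19775 genes, in bins of 0.1 (vertical axis, genes per bin), with values beyond 4 or -4 drawn at the ends. Red lines mark the 10 genes and dotted lines 2-fold. CDKN1A, CDKN1B and CDKN2B lie together between 0.71 and 0.92, inside the right dotted line, and CDK6 lies apart on the left at -2.11.

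The upstream windows of the 3 inhibitors are printed since these genes had the same direction, with GC boxes in capitals. They are chr6:36678464-36678713 on the plus strand for CDKN1A, chr12:12717118-12717367 on the plus strand for CDKN1B and chr9:22009306-22009555 on the minus strand for CDKN2B.
CDKN1A: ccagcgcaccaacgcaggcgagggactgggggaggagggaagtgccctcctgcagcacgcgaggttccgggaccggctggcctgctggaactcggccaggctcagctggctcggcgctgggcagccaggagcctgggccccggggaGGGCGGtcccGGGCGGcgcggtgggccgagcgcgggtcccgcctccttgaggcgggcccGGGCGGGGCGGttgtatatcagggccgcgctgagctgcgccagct
CDKN1B: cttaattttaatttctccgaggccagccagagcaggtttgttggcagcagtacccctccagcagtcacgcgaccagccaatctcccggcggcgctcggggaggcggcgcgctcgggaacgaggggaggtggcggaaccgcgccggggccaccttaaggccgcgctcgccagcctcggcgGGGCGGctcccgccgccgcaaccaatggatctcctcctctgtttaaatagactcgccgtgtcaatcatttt
CDKN2B: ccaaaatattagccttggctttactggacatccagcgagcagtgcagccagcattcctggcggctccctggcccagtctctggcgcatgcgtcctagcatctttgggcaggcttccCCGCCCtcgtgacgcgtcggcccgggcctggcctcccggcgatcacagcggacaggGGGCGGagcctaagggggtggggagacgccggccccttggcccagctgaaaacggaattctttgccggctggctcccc

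The CDKN1A window held 4 GC boxes, of which the last pair shares a base, the CDKN1B window 1 and the CDKN2B window 2. GC boxes were also present at the most upstream starts of the other 4 genes searched (5 for CCND3, 7 for CCNE1, 3 each for CDK4 and CDK6). All 7 genes thus held one at this start, as did 42.6% of all windows. With their further starts the 7 genes had 10 windows. The further window of CDK6 held 0 GC boxes, and those of CCND3 held 2 and 0. The 7 windows at the most upstream starts are GC-rich, from 64.4% for CDKN1B to 81.2% for CCNE1. SP1 itself was at 8.94 and 9.01. None of the 7 windows held the E2F letters TTTCCCGC, TTTGGCGC, TTTCGCGC or TTTGCCGC, which 2.79% of all windows hold, nor TATAAA (10.7%), TGAGTCA of AP-1 (4.2%), GTAAACA of FOXO factors (2.98%), TGACGTCA of CREB (1.65%), GTCTAGAC of SMADs (0.182%) or TTCCCGGAA and TTCCAGGAA of STATs (0.968%).

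The remaining members of the inhibitor families did not share a direction. Of the 3 measured, none was past 2-fold on its brightest probe set, and their median of 0.24 became -0.04 with the mean of the probe sets. CDKN2A, whose locus encodes the INK4 protein p16, was at 9.93 and 10.90, a difference of 0.97, and its other probe sets differed by 1.61 and 0.31. The last of these, at 3.61 and 3.92, did not reach the lower quartile of genes on either array. CDKN2D, which encodes p19, differed by 0.24, and by -0.32 on its second probe set. CDKN1C, which encodes p57, was at 8.97 and 8.47, a difference of -0.50, and all 5 of its probe sets were lower in PC3CR. CDKN2C was not analysed here.

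The listed cyclins and kinases of S and M phase were higher in PC3CR more often than the G1 members. CDK2 was counted with this list, although it also acts with the E cyclins at the passage from G1 into S phase. Of 7 cyclins and CDKs of S and M phase, 6 were higher by 2-fold or more and none was lower by 2-fold or more. Among the G1 members, 2 of the 5 G1 cyclins and neither CDK4 nor CDK6 were higher by that much. Whether these shares differ was not tested. Over all genes 9.84% were higher and 6.72% lower by 2-fold or more. The median of the 7 was 1.70. CDK2, the partner of the E cyclins, read 8.35 in PC3 against 10.055 in PC3CR, a difference of 1.70, although 1 of its 3 probe sets differed by -0.31. CCNA1, the cyclin A of the germline, differed by 2.08, CCNA2, the cyclin A of S phase, by 1.92 and CCNB1 by 1.54. CCNB2 differed by 1.92 on 1 of its 3 probe sets and by 0.12 and 0.05 on the others. The last of these, at 3.31 and 3.36, did not reach the lower quartile of genes on either array. With the mean of the probe sets 5 of the 7 were past 2-fold and the median was 1.12. CCNB3 was within 2-fold, at 0.55.

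Of 12 genes that switch CDKs on or off, 1 was higher by 2-fold or more and 1 lower by 2-fold or more, with a median of 0.08. For all genes the shares were 9.84% and 6.72%. CDC25C, the phosphatase that activates CDK1, differed by 1.66 on its brightest probe set and by 2.08 and 0.22 on the others. The last of these, at 4.74 and 4.96, was the dimmest and the only one without _s or _x in its name. CCNH, the cyclin of the CDK-activating kinase, was at 10.98 and 9.74, a difference of -1.24, whereas its kinase CDK7 differed by 0.67 and the assembly factor MNAT1 by -0.30. CDC37, the co-chaperone that helps CDK4 and CDK6 to fold, was at 10.48 and 10.38. CDKN3, a phosphatase in spite of its symbol, differed by -0.09.

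**Figure D4:**
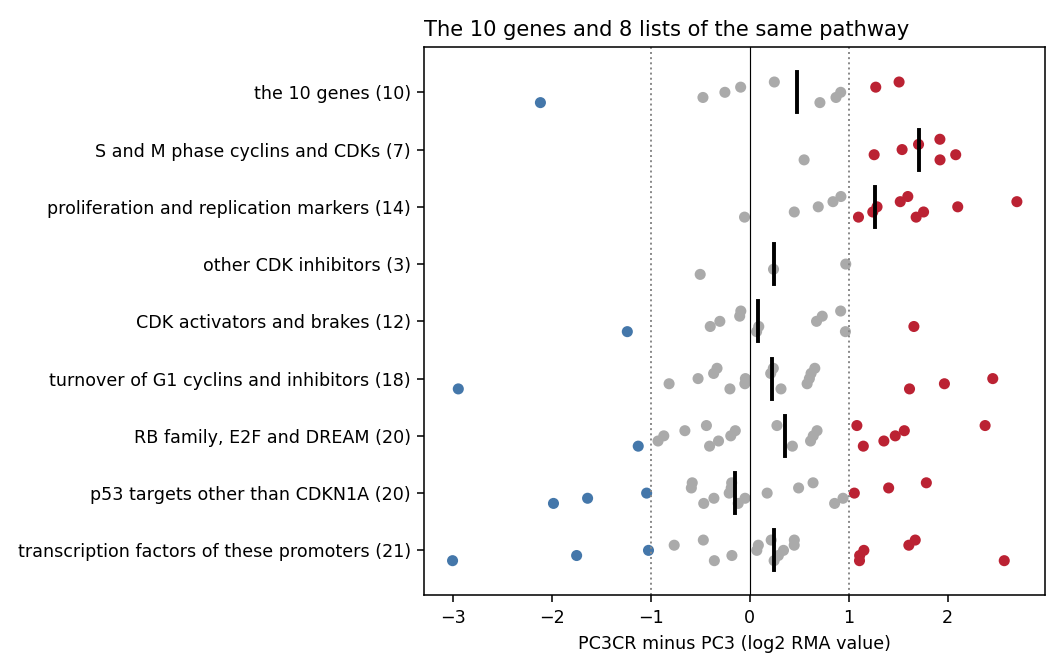
Difference of the log2 RMA values, PC3CR minus PC3, on the horizontal axis for the 10 genes and for 8 lists of genes of the same pathway, 1 point per gene, with the number measured in brackets. Red points are higher by 2-fold or more and blue lower by 2-fold or more in PC3CR, grey points are inside the dotted lines at 2-fold, and medians are drawn as black bars. The S and M phase cyclins and CDKs lie furthest right, with a median of 1.70, against 0.48 for the 10 genes.

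Genes that set the stability of G1 cyclins and inhibitors were mixed. Of 18 measured, 3 were higher by 2-fold or more, 1 was lower by 2-fold or more and the remaining 14 were inside this range. The shares higher and lower over all genes were 9.84% and 6.72%. The median of the 18 was 0.23, or -0.08 with the mean of the probe sets. SKP2, the F-box protein that marks p27 and p21 for destruction, read 7.67 in PC3 against 9.64 in PC3CR, a difference of 1.97, and its 3 probe sets differed by between 1.74 and 1.97. Its cofactor CKS1B was at 11.15 and 11.88, a difference of 0.73. DTL, the substrate receptor that directs p21 to the CUL4 ligase, differed by 1.61. Other subunits of the ligases for p21 and p27 went in both directions. SKP1, RBX1 and CUL4B differed by 0.21, 0.62 and 0.66. DDB1, the adaptor of the CUL4 ligase, differed by -0.33, and RNF123 and UBAC1, which form another ligase for p27, by -0.05 and -0.36. The scaffolds CUL1 and CUL4A differed by 0.60 and 0.24, with a further probe set of each at -1.32 and -1.15. Protein was not measured. FBXO4, an F-box protein described as acting on cyclin D1, was at 5.76 and 8.22, a difference of 2.45 on 1 of 3 probe sets. The other probe sets differed by 0.36 and 0.44, but did not reach the lower quartile of genes on either array. CRYAB, the small heat shock protein described as the partner of FBXO4, was at 7.59 and 4.65, a difference of -2.94. AMBRA1, the receptor for all D cyclins, differed by 0.32, FBXO31, another receptor for cyclin D1, by -0.20, and FBXW7, which recognises cyclin E, by -0.52.

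The RB family lies downstream of the G1 kinases. RB1 read 7.30 in PC3 against 8.77 in PC3CR, a difference of 1.47, with 0.51 on its second probe set. Its relative RBL2 differed by 1.15. RBL1 was at 3.83 and 5.39, a difference of 1.56, with PC3 below the lower quartile and PC3CR below the median gene, and the mean of its probe sets was 0.79, inside 2-fold. Of 20 genes of the RB family, the E2F factors and the DREAM complex, 6 were higher and 1 lower by 2-fold or more. The shares over all genes were 9.84% and 6.72%, or 15.6% and 10.8% where the brighter array reached the median gene. The 20 genes had a median of 0.35, which was -0.15 among those of them whose brighter array reached the median gene. E2F8, a repressor E2F that is itself induced in S phase, differed by 2.38 and TFDP1, the E2F partner, by 1.35, while E2F1 differed by 0.27 and E2F5 by -1.13.

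CDKN1A is best known as a target of p53, and PC3 is described as lacking functional p53. Of 20 other p53 target genes measured, 3 were higher by 2-fold or more, 3 were lower by 2-fold or more and the remaining 14 were inside this range. Among all genes 9.84% were higher and 6.72% lower by that much. The median of the 20 was -0.15, against 0.71 for CDKN1A. GADD45A, a growth arrest gene that stress induces also without p53, was at 12.65 and 10.67, a difference of -1.98. TP53INP1 differed by 1.78 on 1 of 3 probe sets, with a mean of 0.57 over them, PHLDA3 by -1.64 and FAS, a death receptor, by 1.40. Another probe set of TP53INP1, at 2.96 on both arrays, did not reach the lower quartile of genes. MDM2, the p53 ubiquitin ligase, differed by 0.18.

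Of 21 transcription factors that are known to act on these promoters, 6 were higher and 3 lower by 2-fold or more. Their median was 0.25. Over all genes 9.84% were higher and 6.72% lower by that much, or 15.6% and 10.8% where the brighter array reached the median gene. FOS, a subunit of AP-1 and an activator of CCND1, read 10.72 in PC3 against 7.72 in PC3CR, a difference of -3.00, and MYC, described above with CDK4, is also known to repress CDKN1A and CDKN2B. STAT3 was at 6.92 and 9.49, a difference of 2.57, with no difference on 1 of its 4 probe sets. That probe set, at 3.93 on both arrays, did not reach the lower quartile of genes. STAT5B differed by 1.67 on 1 of 5 probe sets, and the mean of its probe sets was 0.42, inside 2-fold. SMAD2 and SMAD3, which carry the TGF-beta signal that induces CDKN2B, differed by 1.11 and 1.11, although the mean over the probe sets of SMAD3 was inside 2-fold. FOXO1, FOXO3 and FOXO4, activators of CDKN1B, differed by 0.45, -0.36 and 0.29. The part of any of these factors in the differences of the 10 genes was not tested.

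The neighbours of the 10 genes along the chromosomes were read as well. Of the 100 measured genes that lie within 5 places of a member, 6 were higher by 2-fold or more and 9 lower by 2-fold or more, with a median of -0.16. Over all genes these shares were 9.84% and 6.72%, with a median of -0.04. CDK6, at -2.11, lay among neighbours that ranged from -1.21 to 0.47, with a median of -0.18. Of these 10 neighbours 7 had a difference below 0. Only 1 was lower by 2-fold or more, RBM48, the next measured gene before CDK6. The neighbours of CCND3, which differed by 1.27, had a median of -0.34 and none was higher by 2-fold or more. CCNE2 lay among neighbours of both directions, from -2.51 (ESRP1) to 1.78 (TP53INP1), of which 3 were lower by 2-fold or more and 1 higher by 2-fold or more. The 10 neighbours of CDKN1A ranged from -0.48 to 0.67 and those of CDKN1B from -0.50 to 0.76, all within 2-fold.

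The neighbours of CDKN2B spanned the widest range, from -5.13 to 1.12. On the side of CDKN2A, which differed by 0.97, MTAP, an enzyme of methionine salvage, was at 8.16 and 9.28, a difference of 1.12. On the other side ELAVL2, a neuronal RNA-binding protein, read 7.76 in PC3 against 2.81 in PC3CR, a difference of -4.94, and TUSC1 was at 7.90 and 2.76, a difference of -5.13. The antisense gene CDKN2B-AS1 was near the floor on both arrays, at 2.37 and 2.23. MTAP, CDKN2A and CDKN2B, which are often deleted together in tumours, thus lay above the median gene on both arrays on their brightest probe sets. This holds as far as probe sets of the related CDKN2A and CDKN2B can be told apart. The dimmer CDKN2B probe set, at 4.73 and 4.88, and the dimmest of CDKN2A, at 3.61 and 3.92, did not reach the median gene on either array.

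**Figure D5:**
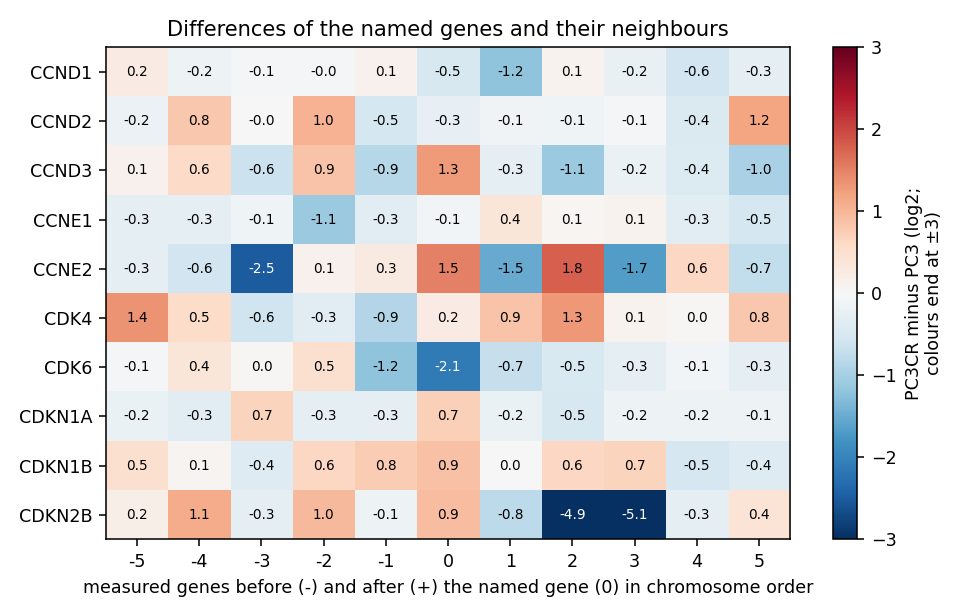
PC3CR minus PC3 (log2 RMA value, colour and number) of each of the 10 genes (column 0) and of the measured genes up to 5 places before and after it in chromosome order, with colours ending at 3 and -3. ELAVL2 and TUSC1, 2 and 3 places after CDKN2B, have the lowest values at -4.94 and -5.13. CDK6 at -2.11 is lower than each of its 10 neighbours, of which RBM48, the next measured gene before it, is at -1.21.

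The arrays were checked against markers of the cells. The keratin genes KRT8 and KRT18 of luminal epithelium were at 9.72 and 11.69 in PC3 and at 9.79 and 12.36 in PC3CR, whereas another keratin gene, KRT19, was at 11.32 and 8.03, a difference of -3.28. Of 7 epithelial markers 4 were lower by 2-fold or more, against 6.72% of all genes. These were KRT19, CLDN4 at -4.97, EPCAM at -2.49 and CLDN7 at -2.07. Of 5 prostate luminal markers 1 was lower by 2-fold or more. This was HOXB13, a homeobox factor of the prostate, at 5.999 in PC3 and 4.27 in PC3CR, with differences of -1.73 and -2.18 on its probe sets, while TMPRSS2 differed by -0.45. The prostate secretory genes KLK2 and ACP3 were at or below 4.26 on both arrays, while KLK3 was at 8.04 and 8.08 on its brightest probe set and at 4.21 and 4.25 on its dimmest. Leukocyte markers ranged up to 5.74 and endothelial markers up to 6.41, and none of either list was past 2-fold, the furthest being CD14 at 0.46 and CD3E at -0.28, and PECAM1 at -0.59 and TEK at 0.22. Among 7 fibroblast markers only COL1A1 passed 2-fold, at -2.12, and with the mean of the probe sets, -0.79 for COL1A1, none did. CTNNA1, which has been described as deleted in PC3, was at 8.997 in PC3 and 11.13 in PC3CR, and 4 of its 5 probe sets were past 2-fold in this direction, the fifth being at -0.09. That PC3CR derives from PC3 is taken from the labels, and expression values alone do not settle whether both arrays hold cells of 1 origin. How the marker differences bear on the 10 genes was not tested. Of 12 control genes none was past 2-fold, with SDHA at 0.75 and POLR2A at 0.68 the furthest, and their median was -0.04.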

How the data were processed

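RNA of PC3 and of PC3CR cells was measured on a single Affymetrix array each. A log2 value per probe set was deposited by the authors, made with the robust multichip average (RMA). Their processing notes name Affymetrix Expression Console 1.4 and Transcriptome Analysis Console 3.1. RMA forces both arrays to a like distribution, so a difference in total RNA per cell is not seen. The methods state a Human Gene 1.0 ST array, but probe sets carry names of the U133 Plus 2.0 design. Genome build and annotation version are not given in the sources used here.

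Probe sets were named from the platform annotation, and 41037 of 41091 with 1 symbol were updated by Entrez ID to RefSeq (GRCh38.p14), giving 19775 genes. Of 54613 probe sets, 1801 with several symbols and 11721 unnamed here were left out. A gene was read from its probe set with the highest mean of both arrays, and all probe sets of the 10 genes were also read. The fold threshold was that of the methods, 2-fold. No p-value was computed and no floor on signal was set. The genes named were the 10 members, in each list up to 4 genes furthest from 0 past 2-fold (otherwise the 2 furthest), and direct regulators of a member. SP1, CDK7, MNAT1, CDKN3, CCNB1, CCNB3, CDKN2D, E2F5, DDB1, RNF123, UBAC1, CUL1, CUL4A, FOXO and SMAD genes, MCM7, KRT8, KRT18, KLK2, KLK3, TMPRSS2, ACP3 and the neighbours of CDK6, CDKN2B and CCNE2 were named after their values were seen. SKP1, RBX1 and CUL4B were also named after their values were seen. The members and lists were chosen with earlier results of these data known. Promoter motifs were chosen after the values were seen, and for genes with several starts the most upstream was used. Alternatives were the mean or median of probe sets, probe sets without _s or _x in the name, median centring, loess centring (span 0.4), quantile normalization, a floor on signal and other thresholds. Tools were matplotlib 3.10.9, statsmodels 0.14.6, pandas 2.3.3 and numpy 2.4.6 under Python 3.11.15.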

Additional observations from a re-analysis of the deposited data

How the results depend on the processing

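A difference was taken as moved when it shifted by over 0.1 on the log2 scale, and a count when it shifted by over 1.5 times. Of 60 differences of the 10 genes under other settings, 47 stayed within 0.1 and none that was past 2-fold changed sign. With the mean of the probe sets, CCND2 differed by -0.064, CCND3 by 0.49, CCNE1 by 0.0797, CCNE2 by 1.61, CDK6 by -1.14 and CDKN2B by 0.54, the 10 genes had a median of 0.37, and 1 of them stayed 2-fold higher. With the median of the probe sets, CCND3 differed by 0.49, CCNE1 by 0.0797, CCNE2 by 1.61, CDK6 by -0.81 and CDKN2B by 0.54, the 10 genes had a median of 0.37, with 1 of them 2-fold higher and 0 lower by that much. Without probe sets named _s or _x, CCND1 differed by -0.28. After quantile normalization CCNE2 differed by 1.40. With a floor on signal, which 9 of the 10 genes met, the median of these 9 was 0.71, against 0.09 over the 10645 genes that met it. At 1.5-fold 5 were higher, and at 3-fold and 4-fold 0. Over all 24 probe sets 3 were lower by at least 2-fold. CCND3 and CDK6 are thus the members whose 2-fold call depends on the probe sets used, and under median centring, loess centring and quantile normalization neither lost it. Without probe sets named _s or _x CTNNA1 differed by -0.093, on its 1 remaining probe set. Of 404 counts and medians of the other lists, 343 were not moved. Among all genes, the 1946 higher and 1329 lower by 2-fold became 3550 and 2676 at 1.5-fold, 756 and 613 at 3-fold and 349 and 395 at 4-fold. No paired analysis was possible because each cell line has 1 array.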
